A study of Mus musculus with 15 samples.

Results

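The genes described here are 8 members of the signalling route that starts with the interleukin-6 family of cytokines: the ligands Lif and Il6, the receptor chain Osmr, the transcription factor Stat3, the feedback inhibitor Socs3, and the transcriptional regulators Cebpd, Cebpb and Bcl3. They were found as the 16 probe sets, of 20380 with a single gene symbol in the platform annotation, whose symbol is 1 of these 8, of 12393 genes in all. The 8 genes were chosen by their differences between drug and PBS arrays of this same table. Their levels and differences are therefore given as a description, with no p-value printed. Calls and counts of members past a threshold, and their confidence intervals, are a description too and support nothing.

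The 15 Affymetrix arrays were hybridised with RNA of mammary epithelial cells, obtained by digesting the glands of female C57BL/6 mice after intraperitoneal injection. The arrays labelled pregnant (day 21) comprise 3 after 5-azacytidine (AzaC, an inhibitor of DNA methylation), 3 after valproic acid (VPA, an inhibitor of histone deacetylases) and 2 after PBS, the vehicle control. The arrays labelled virgin, at week 9 of age, comprise 3 after AzaC, 2 after VPA and 2 after PBS. The labels give no dose or schedule, nor whether each replicate is a mouse of its own, so the spread between arrays may be technical in part.

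In this pathway LIF, IL-6 and oncostatin M bind receptor complexes that share the chain gp130, encoded by Il6st. LIF is bound together with LIFR, and oncostatin M together with OSMR. The associated JAK kinases then phosphorylate STAT3, which enters the nucleus and switches on target genes, among them Socs3, whose product shuts the receptor complex off. In the mouse mammary gland this route is known for involution: LIF activates STAT3 when milk removal stops, oncostatin M acts after it, and STAT3 is needed for the epithelial cells to die on time, while STAT5 serves lactation.

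The promoters of the 4 genes whose levels differ most with AzaC are printed here because the arrays show their transcripts high together. Each sequence is the 250 bases before the start of the gene in RefSeq on GRCm38.p6, read 5′ to 3′ on the strand of the gene. A script searched both strands for a STAT site, written TTCNNNGAA, and an AP-1 site, written TGANTCA. These motifs share no matched bases here, and capitals mark the matches.
Socs3, chr11:117969367-117969616, minus strand: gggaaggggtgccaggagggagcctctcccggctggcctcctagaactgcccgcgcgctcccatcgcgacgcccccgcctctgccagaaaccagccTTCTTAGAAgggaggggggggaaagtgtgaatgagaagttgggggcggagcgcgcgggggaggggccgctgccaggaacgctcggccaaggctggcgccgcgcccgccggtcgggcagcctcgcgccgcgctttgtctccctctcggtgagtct
Stat3, chr11:100939541-100939790, minus strand: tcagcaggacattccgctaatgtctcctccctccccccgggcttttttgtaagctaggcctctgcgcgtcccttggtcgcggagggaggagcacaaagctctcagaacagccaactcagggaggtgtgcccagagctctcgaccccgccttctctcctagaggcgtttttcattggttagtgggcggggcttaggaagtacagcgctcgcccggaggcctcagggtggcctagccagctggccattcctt
Osmr, chr15:6874314-6874563, minus strand: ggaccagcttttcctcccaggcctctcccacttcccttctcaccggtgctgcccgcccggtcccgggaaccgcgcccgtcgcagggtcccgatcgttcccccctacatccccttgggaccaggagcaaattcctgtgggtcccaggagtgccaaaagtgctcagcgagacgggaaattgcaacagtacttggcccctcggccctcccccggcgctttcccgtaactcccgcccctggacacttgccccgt
Lif, chr11:4257318-4257567, plus strand: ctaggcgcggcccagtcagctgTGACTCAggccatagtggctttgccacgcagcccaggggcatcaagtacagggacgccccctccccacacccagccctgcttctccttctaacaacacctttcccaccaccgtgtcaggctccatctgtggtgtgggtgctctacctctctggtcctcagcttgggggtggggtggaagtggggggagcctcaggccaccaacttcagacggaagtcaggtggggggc

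The table held 7 of the 8 members. Socs3 had a STAT match, TTCTTAGAA, at bases 154 to 146 before its start, and was the 1 member of 7 with one, against 7.02% of 32851 promoters of the same length. Lif had an AP-1 match, TGACTCA, at bases 228 to 222 before its start. With Il6, that made 2 of 7 members, against 6.75% of all promoters. A match describes letters in this window and is not a site of binding, and the windows of Stat3 and Osmr held neither motif.

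The labelled cell type and stage were checked against marker genes before the values were read. All 10 luminal epithelial markers and 7 of 9 basal markers had a mean above 7.04, the level under which the dimmest 40% of genes lay. The 6 milk-protein genes averaged between 13.92 and 14.29 on every array, the arrays labelled virgin included, near the highest value of the table, 14.48. High milk transcripts in a virgin gland go against that label, so the groups are named here as labelled. One array, AzaC replicate 1 labelled virgin, stood apart from its replicates. On the first principal component (54.1% of the variance) it was at -31.53 and they were at 2.10 and 7.99. It was lowest of the 15, but close to PBS replicate 2 labelled virgin (-31.10) and PBS replicate 2 labelled pregnant (-30.68). The PBS arrays labelled virgin also lay apart, with replicate 1 at -10.68.

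Socs3 was the member that differed most between drug and PBS in the arrays labelled pregnant. On the log2 scale it read 10.85, 10.31 and 9.66 with AzaC and 10.10, 10.59 and 10.26 with VPA, against 6.79 and 6.52 with PBS. All 6 drug arrays were thus at least 2.87 above the higher PBS array. The difference from PBS was 3.62 ± 0.29 (SE) with AzaC, a ratio of 12.3, and 3.66 ± 0.29 (SE) with VPA, a ratio of 12.7.

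With the label virgin, Socs3 read 8.52, 8.78 and 8.54 with AzaC, 7.34 and 7.58 with VPA, and 6.93 and 6.88 with PBS. The 3 groups did not overlap, with AzaC highest and PBS lowest. The AzaC difference of 1.71 ± 0.29 (SE) and the VPA difference of 0.56 ± 0.32 (SE) were smaller than in the arrays labelled pregnant, and neither passed the threshold of 0.05 on the adjusted p. Over the 6 groups the order of mean Socs3 was pregnant VPA, pregnant AzaC, virgin AzaC, virgin VPA, virgin PBS and pregnant PBS, and only the first pair of neighbours overlapped.

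**Figure D1:**
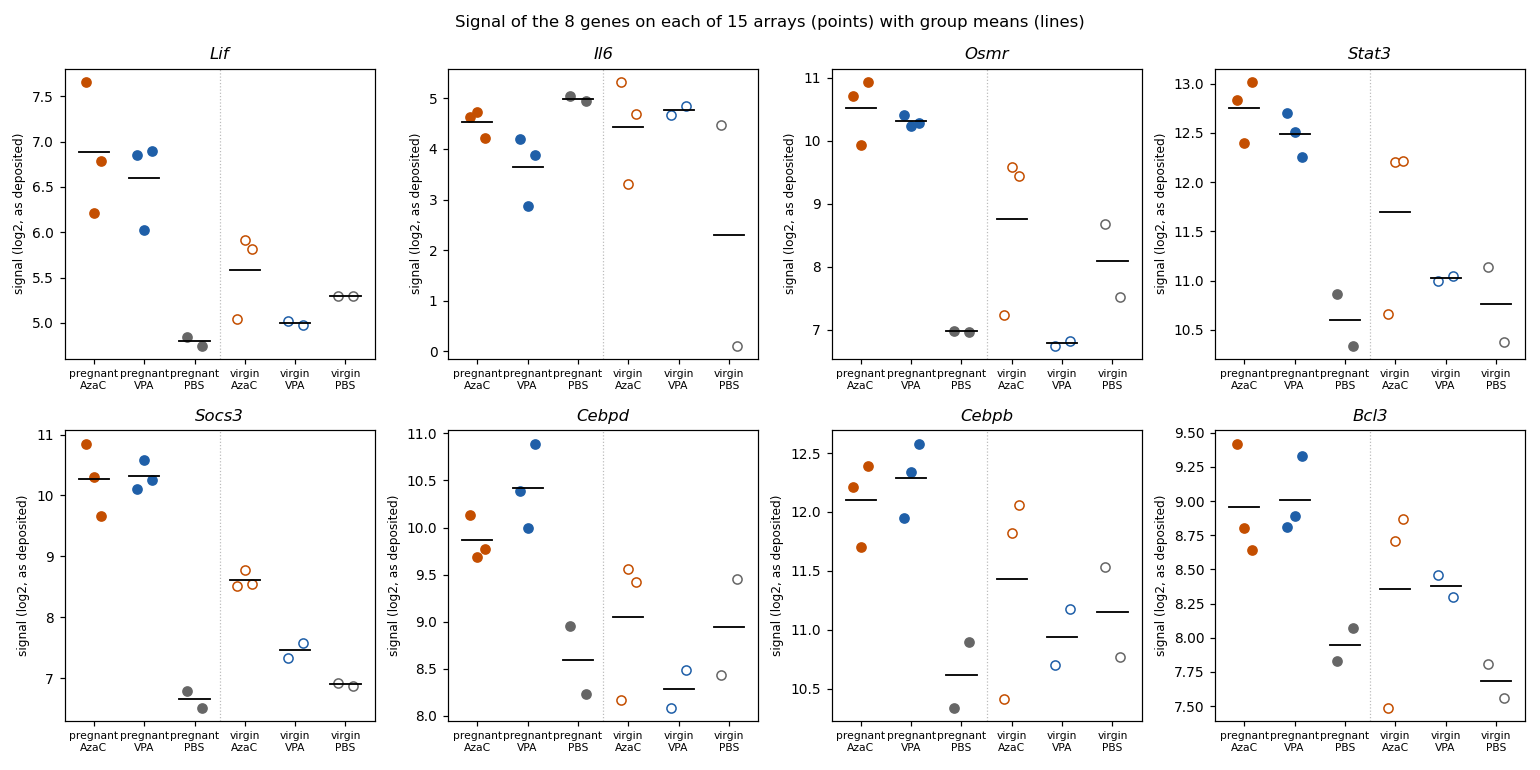
Signal (log2, vertical axis) of each of the 8 genes on each of the 15 arrays, 1 panel a gene, with the 6 groups on the horizontal axis and a bar at each group mean. Socs3 lies between 9.66 and 10.85 on the 6 drug arrays labelled pregnant and between 6.52 and 6.79 on the PBS arrays of that label; Il6 is dim on all 15.

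All 3 probe sets of Socs3 gave this pattern. The probe set used above, 1455899_x_at, is the brightest, and its suffix marks that some of its probes may match other transcripts. The probe set 1416576_at, without that suffix, differed from PBS by 2.61 ± 0.44 (SE) with AzaC and by 2.55 ± 0.44 (SE) with VPA in the arrays labelled pregnant, and followed the brightest with a Pearson r of 0.96 over the 15 arrays. For 1456212_x_at the differences were 3.58 and 3.66 and the correlation 0.991.

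The receptor chain Osmr had the next largest difference in the arrays labelled pregnant. It read 10.71, 9.93 and 10.94 with AzaC and 10.41, 10.24 and 10.28 with VPA, against 6.98 and 6.97 with PBS. No drug array overlapped a PBS array. The differences were 3.55 ± 0.60 (SE) with AzaC and 3.34 ± 0.60 (SE) with VPA, ratios of 11.7 and 10.1.

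Osmr in the arrays labelled virgin was uneven. It read 7.24, 9.58 and 9.45 with AzaC, 6.75 and 6.83 with VPA, and 8.68 and 7.52 with PBS. AzaC replicate 1 lay under both PBS arrays while its other replicates lay over them, and both VPA arrays were lower than PBS. The AzaC difference was 0.66 ± 0.60 (SE), or 1.42 without replicate 1, and the VPA difference was -1.31 ± 0.66 (SE); neither passed the threshold. Osmr was the member whose PBS levels differed most by stage label among those clearly above background, at 6.98 ± 0.01 (SD, n = 2) in arrays labelled pregnant and 8.10 ± 0.82 (SD, n = 2) in arrays labelled virgin, a difference of -1.13 ± 0.66 (SE). A second probe set, 1418675_at, gave smaller differences in the arrays labelled pregnant, 1.55 ± 0.78 (SE) with AzaC and 1.25 ± 0.78 (SE) with VPA, and its VPA arrays overlapped those with PBS.

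Stat3, the transcription factor of the route, read 12.83, 12.40 and 13.02 with AzaC and 12.70, 12.51 and 12.26 with VPA in the arrays labelled pregnant, against 10.86 and 10.34 with PBS. Every drug array was higher than both PBS arrays. The differences were 2.15 ± 0.43 (SE) with AzaC and 1.89 ± 0.43 (SE) with VPA, ratios of 4.44 and 3.71. With the label virgin it read 10.66, 12.20 and 12.22 with AzaC, 11.00 and 11.05 with VPA, and 11.14 and 10.38 with PBS. Here AzaC replicate 1 lay within the PBS range and both its other replicates lay above it. For Osmr it lay under both PBS arrays. The AzaC difference of 0.93 ± 0.43 (SE) became 1.45 without that array.

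The 3 Stat3 probe sets did not all show this. The probe set 1460700_at followed the brightest, 1426587_a_at, with r = 0.985, and differed by 1.99 ± 0.37 (SE) with AzaC and 1.94 ± 0.37 (SE) with VPA. The probe set 1424272_at did not, with r = -0.06, and differed by 0.50 ± 0.48 (SE) and 0.37 ± 0.48 (SE). Which transcripts each probe set detects is not given in the sources used here. Over all 16 probe sets of the members, tested among 20380, 7 were past the threshold with AzaC and 8 with VPA in the arrays labelled pregnant, against 6.28% and 4.36% of all. Under the label virgin it was 0 with each drug, against 0% and 0.0147%.

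Lif, the cytokine itself, was dim but showed the same order of drug and PBS arrays. Under the label pregnant it read 7.66, 6.21 and 6.79 with AzaC and 6.85, 6.03 and 6.90 with VPA, against 4.85 and 4.75 with PBS. The drug arrays lay above the PBS arrays by at least 1.18. The differences were 2.09 ± 0.40 (SE) with AzaC and 1.79 ± 0.40 (SE) with VPA. With PBS both values were under 5, a region where many probe sets of these arrays are listed at or near 0; with all values under 5 set to 5, Lif with VPA no longer passed the threshold.

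With the label virgin Lif read 5.04, 5.91 and 5.81 with AzaC, 5.02 and 4.98 with VPA, and 5.30 on both arrays with PBS. The AzaC arrays lay on both sides of PBS, and both VPA arrays lay under it, with a difference of -0.30. A second Lif probe set, 1450160_at, was under 5 on all 15 arrays and did not follow the first.

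Il6 gave no usable difference. It was at most 5.33 on any array and read 4.64, 4.73 and 4.22 with AzaC and 4.19, 2.88 and 3.88 with VPA, against 5.05 and 4.94 with PBS, in the arrays labelled pregnant. One PBS array labelled virgin read 0.11 while its replicate read 4.48. The VPA difference in the arrays labelled pregnant, -1.35 ± 0.98 (SE), became -0.03 with values under 5 set to 5. The transcript of oncostatin M, the ligand of OSMR, was not analysed here.

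Cebpd and Cebpb encode the transcription factors C/EBP delta and C/EBP beta. C/EBP delta is a known target of STAT3 in the involuting mammary gland, and C/EBP beta is needed for the growth of the ducts and alveoli. Cebpd read 10.13, 9.69 and 9.77 with AzaC and 10.39, 9.99 and 10.89 with VPA, against 8.96 and 8.23 with PBS, in the arrays labelled pregnant. The differences were 1.27 ± 0.45 (SE) with AzaC, which did not pass the threshold, and 1.83 ± 0.45 (SE) with VPA, which did. Among the calls of members against PBS this VPA call was the weakest: it held in 11 of 25 other settings. A second Cebpd probe set, 1456605_at, was under 5 on all 15 arrays and at 0 on 6 of them.

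Cebpb read 12.21, 11.70 and 12.39 with AzaC and 11.95, 12.34 and 12.58 with VPA, against 10.34 and 10.90 with PBS, in the arrays labelled pregnant. The drug arrays lay above the PBS arrays, yet neither difference, 1.48 ± 0.45 (SE) with AzaC and 1.67 ± 0.45 (SE) with VPA, passed the threshold. Its second probe set, 1427844_a_at, differed by 2.63 ± 0.80 (SE) with AzaC and 2.65 ± 0.80 (SE) with VPA, also short of it, and tracked the first with r = 0.818.

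Bcl3 encodes an IkB-like protein that acts in the nucleus with the p50 and p52 subunits of NF-kB. It read 9.42, 8.80 and 8.64 with AzaC and 8.81, 8.89 and 9.33 with VPA, against 7.83 and 8.07 with PBS, in the arrays labelled pregnant. The groups did not overlap, and the differences of 1.00 ± 0.37 (SE) and 1.06 ± 0.37 (SE) did not pass the threshold. Bcl3 had 1 probe set, as did Il6.

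Among the arrays labelled virgin none of these 3 regulators passed the threshold. Cebpd differed by 0.11 ± 0.45 (SE) with AzaC and -0.66 ± 0.49 (SE) with VPA, and Cebpb by 0.28 ± 0.45 (SE) and -0.21 ± 0.50 (SE). Bcl3 read 7.49, 8.71 and 8.87 with AzaC and 8.46 and 8.30 with VPA, against 7.81 and 7.56 with PBS, so its VPA arrays did not overlap PBS. On AzaC replicate 1, Cebpd (8.17), Cebpb (10.41) and Bcl3 (7.49) were each lower than on both PBS arrays.

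**Figure D2:**
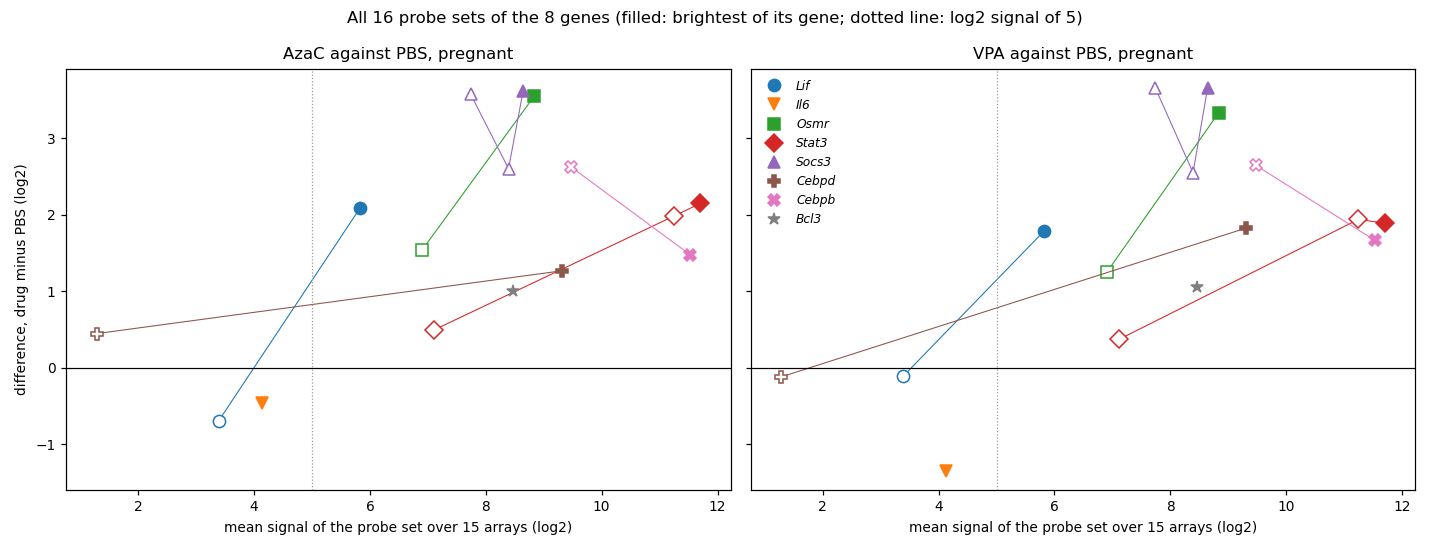
Difference from PBS (log2, vertical axis) against mean signal over the 15 arrays (log2, horizontal axis) of the 16 probe sets of the 8 genes, in the arrays labelled pregnant, AzaC on the left and VPA on the right; filled symbols are the brightest probe set of each gene, thin lines join probe sets of 1 gene, and the dotted line marks a signal of 5. The 3 Socs3 probe sets lie between 2.55 and 3.66, the dimmest Stat3 probe set lies at 0.50 and 0.37, and the open symbols of Lif and Cebpd lie left of the dotted line.

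Counted over the 8 genes in the arrays labelled pregnant, 4 were past the threshold and higher with AzaC (Socs3, Osmr, Stat3 and Lif), against 3.76% of all 12393 genes, or 7.57% in either direction. With VPA 5 were (the same 4 and Cebpd), against 3.64% of all genes, or 5.98% in either direction. No member was past it in the lower direction. Both comparisons use the same 2 PBS arrays. The median difference of the members was 1.78 with AzaC and 1.81 with VPA, and over all genes 0.04 and 0.06. In each comparison 7 of 8 members did not overlap PBS in the higher direction, as did 23.5% of all genes with AzaC and 25.7% with VPA, and Il6 did not overlap it in the lower direction, as did 20.9% and 17.6%.

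These counts rest on few control arrays. Without pregnant PBS replicate 1 or 2, only Socs3 was past the threshold with either drug. They became 2 without pregnant AzaC replicate 3 for AzaC, and 2, 3 and 2 without pregnant VPA replicates 1, 2 and 3 for VPA, with 3 without either virgin VPA array. Leaving out virgin AzaC replicate 1, which enters only the shared estimate of spread, gave 7 with each drug. For arrays left out, counts over all genes are not given here, so a change particular to the members cannot be read. With 3 arrays of a high difference between the 3′ and 5′ Gapdh control probe sets left out, 3 members passed with AzaC and 1 with VPA. This choice was made after the data were seen. The 3 arrays were PBS replicate 2 labelled virgin (1.23), AzaC replicate 1 labelled pregnant (0.85) and VPA replicate 3 labelled pregnant (0.82). The first of them is 1 of the 2 PBS arrays labelled virgin.

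In the arrays labelled virgin 0 of 8 members were past the threshold with AzaC and 0 with VPA by limma, against 0% and 0.00807% of all genes. At an unadjusted p under 0.05 there was 1 member with each drug, Socs3 with AzaC and Il6 with VPA. Without virgin PBS replicate 1, which leaves the Il6 value of 0.11 as the only one with PBS, Il6 passed with each drug. Of the 12393 genes, 849 and 851 had such a p. Groups did not overlap in the higher direction for 1 member with AzaC (Socs3), against 11.5% of all genes, and for 3 with VPA (Socs3, Bcl3 and Il6), against 20.8%. The median of the members' differences was 0.66 with AzaC and 0.03 with VPA, with 0.06 and 0.05 over all genes.

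**Figure D3:**
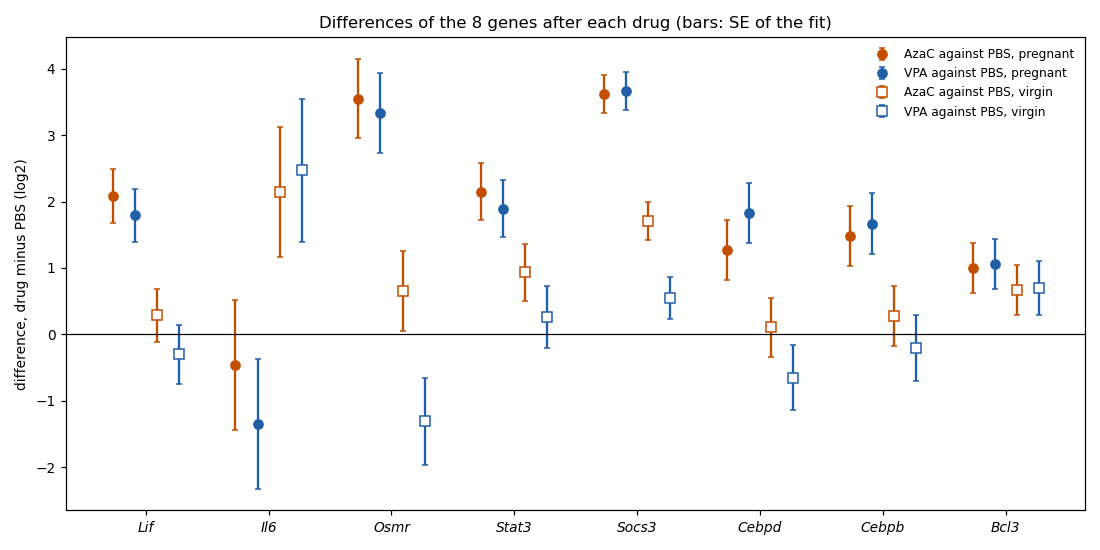
Difference, drug minus PBS (log2, vertical axis), for each of the 8 genes (horizontal axis), with the SE of the fit as bars, for AzaC and VPA in arrays labelled pregnant (filled circles) and virgin (open squares). In the arrays labelled pregnant both drugs lie above 0 for every gene but Il6, and Socs3 lies at 3.62 and 3.66; in those labelled virgin Socs3 lies at 1.71 and 0.56.

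The stage labels were compared within each injection. After PBS no member was past the threshold between pregnant and virgin by limma (0.00807% of all genes were). An unadjusted p under 0.05 was found for 1 member (Il6), and for 521 of all 12393 genes. Socs3 differed by -0.25 ± 0.32 (SE). After AzaC only Socs3 was past it, at 1.66 ± 0.26 (SE), against 1.23% of all genes in either direction and 0.121% in the higher one; this call held in 16 of 25 other settings and ended without pregnant AzaC replicate 1, any virgin AzaC array or either virgin VPA array. After VPA it was 4 members (Socs3, Osmr, Cebpd and Lif, with differences of 2.86, 3.52, 2.13 and 1.59), against 3.7% of all genes in that direction and 6.66% in either. That count was 0 without virgin VPA replicate 1, 1 without virgin VPA replicate 2, and 2 without pregnant VPA replicate 1 or 3. The Lif call held in 8 of 24 other settings.

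Whether a drug difference depended on the stage label was read from the difference of the 2 differences. For Socs3 this was 3.11 ± 0.43 (SE) with VPA, 1 of 8 members past the threshold, against 0.121% of all genes in that direction and 0.315% in either, and the call held in 17 of 25 other settings. It ended without any 1 of the pregnant PBS, pregnant VPA or virgin VPA arrays. For AzaC it was 1.91 ± 0.41 (SE), with 0 of 8 members and 0% of all genes past the threshold. An unadjusted p under 0.05 was found for 3 members, and for 1587 of all 12393 genes. Osmr had the largest such difference with VPA, 4.65 ± 0.89 (SE), which did not pass the threshold.

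AzaC and VPA were also set against each other directly. In the arrays labelled pregnant the Socs3 difference, AzaC minus VPA, was -0.04 with a 95% confidence interval of -0.61 to 0.52. For Stat3 the interval was -0.58 to 1.10 and for Osmr -0.96 to 1.40. These intervals leave room for differences of about 1 in either direction for Osmr. No member, and 0% of all genes, passed the threshold here. In the arrays labelled virgin Socs3 differed by 1.15, with an interval of 0.52 to 1.79, and Osmr by 1.97, with an interval of 0.65 to 3.28. Again 0 of 8 members and 0% of all genes passed by limma. An unadjusted p under 0.05 was found for 2 members, and for 813 of all 12393 genes.

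The members other than Il6 varied together over the 15 arrays, which share the same 6 groups. For Il6 the r with the other members lay between -0.34 (Cebpd) and 0.11 (Bcl3). With the first principal component r was 0.977 for Osmr, 0.969 for Stat3 and 0.888 for Socs3. Osmr and Stat3 had a Pearson r of 0.946, and their deviations from the group means had an r of 0.953. Both spread most in the AzaC group labelled virgin (SD 1.32 and 0.89, n = 3), which weighs heavily in the latter r. In the PBS group labelled pregnant, Osmr read 6.97 to 6.98 while Stat3 read 10.34 to 10.86. Socs3 and Stat3 had an r of 0.889, and their deviations an r of 0.05. The plot of Osmr and Socs3 against Stat3 shows this: AzaC replicate 1 labelled virgin was low for Osmr and Stat3 while Socs3 stayed at 8.52, next to 8.78 and 8.54 on its replicates. These correlations are a description over arrays that share groups, with no test. The arrays measure the Stat3 transcript and not the phosphorylation of STAT3.

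**Figure D4:**
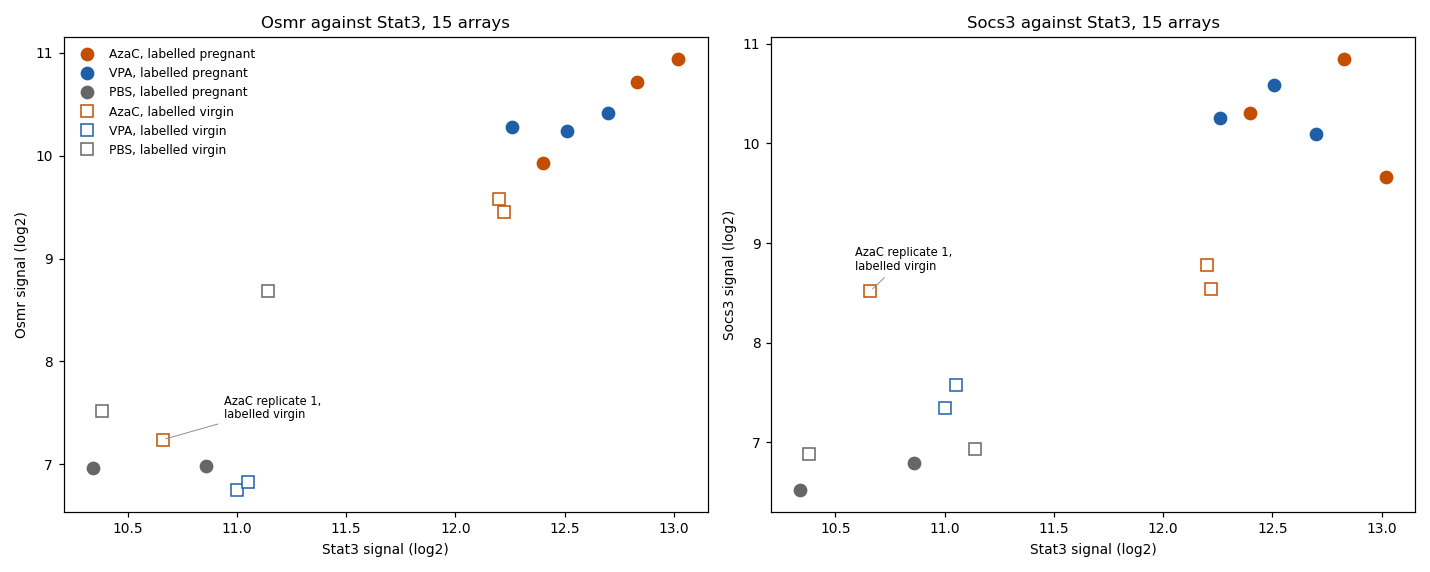
Osmr (left) and Socs3 (right) signal (log2, vertical axes) against Stat3 signal (log2, horizontal axes) on the 15 arrays, filled circles for the label pregnant and open squares for virgin, coloured by injection. On AzaC replicate 1 labelled virgin, Osmr and Stat3 are both lower than on its replicates. Socs3 on that array (8.52) is level with its replicates, and Stat3 there is 10.66 against 12.20 and 12.22.

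Of 84 other genes of the route, in 8 lists, 75 were measured. The lists were chosen with earlier results of these data known, so their counts and adjusted p are given as a description. In the arrays labelled pregnant, 7 of 75 rose and 2 fell with AzaC and 7 rose and 1 fell with VPA by limma with Benjamini-Hochberg adjustment over all genes, where 3.76% rose and 3.81% fell with AzaC and 3.64% and 2.34% with VPA. The median difference of the 75 was 0.33 and 0.41. With either drug 0 of the 75 passed in the arrays labelled virgin. An unadjusted p under 0.05 was found for 3 with AzaC and 4 with VPA, and for 849 and 851 of all 12393 genes. Socs7, a dim inhibitor gene, was among them, at -0.98 with AzaC and -1.06 with VPA (limma adjusted p = 0.632 and 0.592). The others with AzaC were the kinase gene Jak1 at 0.87 and the NF-kB gene Nfkb2 at 0.50 (0.714 for each). With VPA they were the ligand gene Clcf1 at -0.86 (0.684), the receptor gene Lifr at -0.815 (0.706) and the NF-kB gene Nfkbiz at 0.895 (0.592). The 7 measured receptor and kinase genes had a median of 0.10 with AzaC and -0.495 with VPA, against 0.06 and 0.05 over all genes. In the same arrays Stat6 differed by 0.42 with AzaC, and Stat5a by 0.44 and Stat5b by 0.19 with VPA, while Cebpg differed by 0.10 and Ddit3 by -0.09 with AzaC, and Ddit3 by -0.28, Cebpa by -0.05 and Ctf1 by 0.07 with VPA. Il10, Il11, Stat4 and Socs1 had means under 5 over the 15 arrays, and with values under 5 set to 5 they differed by 0, 0, -0.20 and 0.02 with AzaC, and Socs1 by 0.23 with VPA.

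Upstream of STAT3, the list of receptors and kinases had 7 measured genes and medians of 0.80 with AzaC and 0.86 with VPA. Il6st (gp130) read 10.42, 10.38 and 11.03 with AzaC and 11.22, 10.57 and 10.86 with VPA, against 9.64 and 9.49 with PBS. It rose by 1.32 ± 0.34 (SE) with VPA (limma adjusted p = 0.0469), and its AzaC difference was 1.05 ± 0.34 (SE, limma adjusted p = 0.0837). Tyk2, a JAK family kinase, rose with AzaC by 0.69 ± 0.19 (SE, limma adjusted p = 0.0496). Lifr, the partner chain for LIF, read 10.71, 9.98 and 11.15 with AzaC and 10.59, 10.15 and 10.32 with VPA, against 9.38 and 9.61 with PBS, differences of 1.12 (limma adjusted p = 0.0563) and 0.86 (0.129).

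The kinases Jak1 and Jak2 did not pass either. Jak1 differed by 0.86 with each drug (limma adjusted p = 0.171 with AzaC and 0.183 with VPA), and Jak2 by 0.77 and 0.70 (0.0652 and 0.0972). None of 4 other ligand genes passed. Clcf1 differed by 0.64 with AzaC and 0.28 with VPA, Ctf1 by -0.18 with VPA, and Il11, whose mean was under 5, by 0.86 with AzaC. Of 5 other STAT genes 0 passed, and they did not share 1 direction. Stat6, which carries interleukin-4 signals, read 10.09, 9.55 and 10.40 with AzaC and 9.85, 9.84 and 10.11 with VPA, against 9.14 and 9.23 with PBS. Every drug array was thus higher, as for 23.5% of all genes with AzaC and 25.7% with VPA. The Stat6 differences were 0.83 with AzaC (limma adjusted p = 0.0661) and 0.75 with VPA (0.0995). Stat5a, which carries prolactin signals in the lactating gland, differed by -0.44 with AzaC (limma adjusted p = 0.396) and -0.45 with VPA (0.399), and Stat5b by 0.01 and 0.02. Stat4 differed by 1.15 with VPA (limma adjusted p = 0.279), with a PBS mean of 3.93, under the level of reliable order.

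Of 14 other inhibitors 0 passed. Those with the smallest p were Socs5, a SOCS family gene, which differed by 0.66 with AzaC and 0.56 with VPA (limma adjusted p = 0.0648 and 0.116), and Ptpn11, which encodes the phosphatase SHP2, by 0.81 and 0.69 (0.0875 and 0.146). For both genes every drug array was higher than both PBS arrays, as for 23.5% of all genes with AzaC and 25.7% with VPA. Cish, a SOCS family gene that STAT5 induces, differed by -0.33 and -0.37.

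Among 18 known STAT3 targets, 2 rose and 1 fell with each drug. Of all genes 3.76% rose and 3.81% fell with AzaC, and 3.64% and 2.34% with VPA. Junb, a subunit of AP-1, read 10.03, 8.83 and 9.59 with AzaC and 9.20, 9.35 and 9.89 with VPA, against 6.98 and 7.01 with PBS. It rose by 2.49 ± 0.51 (SE) with AzaC and by the same 2.49 ± 0.51 (SE) with VPA (limma adjusted p = 0.0203 and 0.0246). Klf4, a zinc finger transcription factor, rose by 1.33 ± 0.25 (SE) and 1.19 ± 0.25 (SE) (limma adjusted p = 0.0159 and 0.0251).

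Ccnd1 (cyclin D1), which drives entry into the cell cycle, went the other way. It read 9.68, 10.48 and 10.24 with AzaC and 9.55, 8.88 and 9.58 with VPA, against 11.87 and 12.00 with PBS. It fell by 1.80 on the log2 scale with AzaC and by 2.60 with VPA (SE 0.31 for each, limma adjusted p = 0.0121 and 0.00616). STAT3 is known to activate this gene in other cells, and the 3 targets past the threshold did not share 1 direction.

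In the list of acute phase and involution genes, 2 of 16 rose and 1 fell with AzaC and 2 rose with VPA, with medians of 1.02 and 1.26. Of all genes 3.76% rose and 3.81% fell with AzaC, and 3.64% rose with VPA. Cd14, a receptor for bacterial lipopolysaccharide known to be high in involution, read 13.74, 13.92 and 14.06 with AzaC and 13.90, 13.87 and 13.65 with VPA, against 10.50 and 9.89 with PBS. It rose by 3.71 ± 0.75 (SE) with AzaC and 3.61 ± 0.75 (SE) with VPA (limma adjusted p = 0.0193 and 0.0250). Pik3r1, a regulatory subunit of PI3 kinase that STAT3 raises in involution, rose by 1.73 ± 0.38 (SE) and 1.54 ± 0.38 (SE) (limma adjusted p = 0.0254 and 0.0406). Orm1, an acute phase protein, fell by 1.12 with AzaC (SE 0.30, limma adjusted p = 0.0482).

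Of 8 NF-kB genes 2 rose with each drug, against 3.76% of all genes with AzaC and 3.64% with VPA. The list medians were -0.13 with AzaC and 0.02 with VPA. Relb read 7.30, 7.15 and 7.20 with AzaC and 7.14, 7.20 and 7.78 with VPA, against 4.98 and 3.85 with PBS, and rose by 2.80 ± 0.58 (SE) and 2.96 ± 0.58 (SE) (limma adjusted p = 0.0218 and 0.0215). Both PBS values of Relb lay under 5, where levels have no reliable order, so the size of its difference is uncertain: with values under 5 set to 5 it was 2.22 with AzaC and 2.37 with VPA (limma adjusted p = 0.0239 and 0.0236). Rela rose by 1.29 ± 0.24 (SE) and 1.26 ± 0.24 (SE) (limma adjusted p = 0.0159 and 0.0202). None of 3 other C/EBP genes passed. Cebpa differed by 0.77 with AzaC and 1.02 with VPA (limma adjusted p = 0.141 and 0.0711), and Ddit3 by 0.59 and 0.75 (0.125 and 0.0738). Both were higher on every drug array than on both PBS arrays, as were 23.5% of all genes with AzaC and 25.7% with VPA. All pathway calls with AzaC ended without either pregnant PBS array, and with VPA only 1, in the lower direction, was left without replicate 1 and 0 without replicate 2. Without pregnant AzaC replicates 1, 2 and 3 there were 2, 15 and 1 calls with AzaC, and without pregnant VPA replicates 1, 2 and 3 there were 2, 3 and 1 with VPA. Without virgin AzaC replicate 1 there were 17 and 16.

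**Figure D5:**
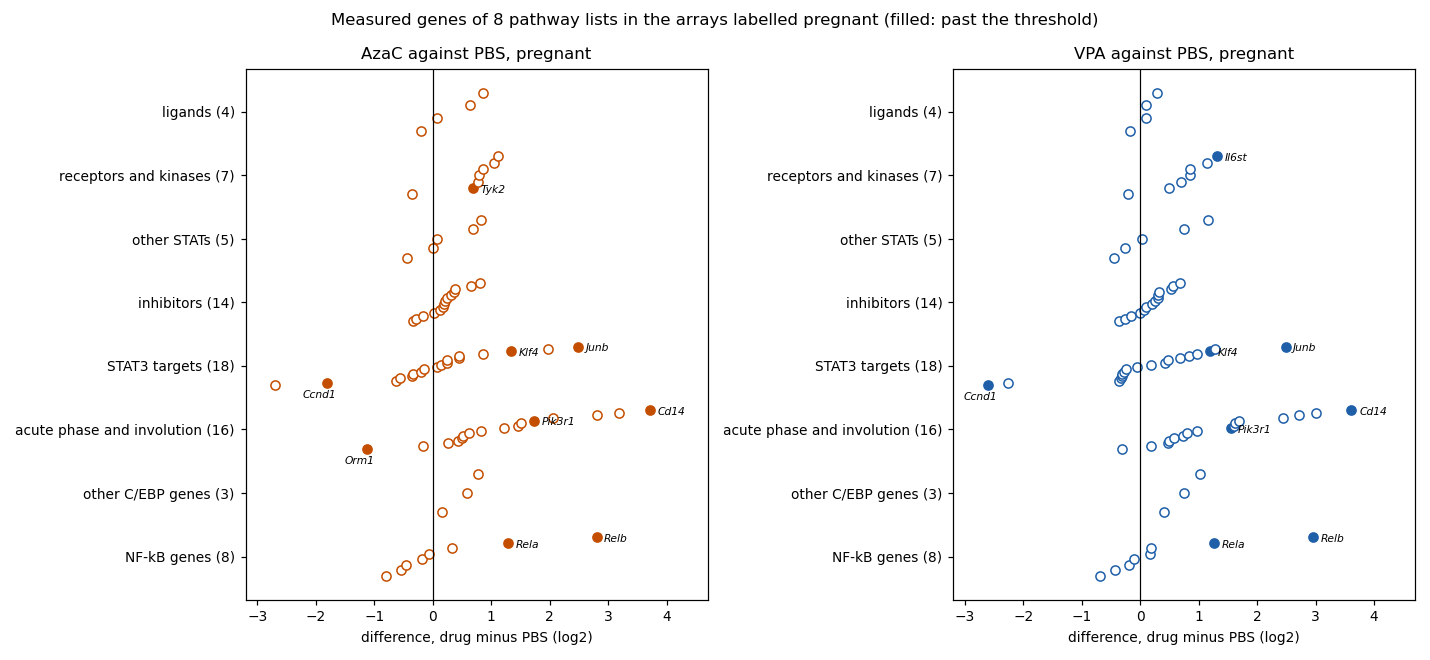
Difference of drug and PBS (log2, horizontal axis) of the 75 measured pathway genes, by list with the number of measured genes in brackets, in the arrays labelled pregnant, AzaC on the left and VPA on the right. Filled points passed the threshold of 0.05 on the adjusted p and are named; Cd14 lies furthest right at 3.71 and 3.61, and Ccnd1 at -1.80 and -2.60.

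Between the stage labels after VPA, 10 of 75 pathway genes were higher in the arrays labelled pregnant and 1 was lower, against 3.7% of all genes in the higher direction and 6.66% in either. Here 4 were receptors or kinases: Lifr (1.67 ± 0.32 SE, limma adjusted p = 0.0200), Il6st (1.35 ± 0.34, 0.0421), Il6ra (1.71 ± 0.46, 0.0483) and Jak2 (1.19 ± 0.23, 0.0203). In the arrays labelled virgin, Lifr averaged 8.68 after VPA and 9.495 after PBS, and Jak2 averaged 8.38 and 8.875. All 11 of these calls ended without virgin VPA replicate 1, and likewise without replicate 2, and there were 4, 5 and 2 without pregnant VPA replicates 1, 2 and 3. After AzaC, and after PBS, 0 of 75 passed by limma, with 17 and 4 at an unadjusted p under 0.05. Of all 12393 genes, 2283 and 521 had such a p.

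Markers of other cells and of tissue handling were read beside these results. The summed signal of 18 immediate early and heat shock genes, which rise when tissue is digested and which include Junb, lay between 14.03 and 14.57 on the log2 scale with AzaC and between 14.12 and 14.37 with VPA, against 13.54 to 13.55 with PBS, in the arrays labelled pregnant. Of these 18 genes 6 rose with AzaC and 3 with VPA, against 3.76% and 3.64% of all genes. The mean of the 18 had an r of 0.972 with Stat3, 0.941 with Osmr and 0.805 with Socs3 over the 15 arrays. The summed signal of 10 macrophage markers was 12.87 to 13.07 with AzaC and 13.08 to 13.31 with VPA, against 12.42 to 12.67 with PBS, and 0 of 10 passed; 8 of the 10 had a mean above 7.04.

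The 10 luminal markers moved with the members as well, with a summed signal of 15.67 to 16.03 with AzaC and 15.72 to 16.01 with VPA, against 15.16 to 15.20 with PBS, and 1 and 3 of 10 rose. In these comparisons 3.76% of all genes rose with AzaC and 3.64% with VPA. The 9 fibroblast markers summed to 13.78 to 14.53 with AzaC and 13.94 to 14.93 with VPA, against 13.42 to 13.58 with PBS, and 0 and 1 of 9 rose. The 10 endothelial markers summed to 11.88 to 12.46 with AzaC and 11.64 to 12.38 with VPA, against 10.99 to 11.68 with PBS, and 1 of 10 rose with each drug. The 6 measured adipocyte markers summed to 13.28 to 13.79 with AzaC and 13.65 to 13.68 with VPA, against 13.06 to 13.25 with PBS, and the 6 milk-protein genes to 16.73 to 16.88 and 16.77 to 16.81, against 16.55 to 16.66. The 9 basal markers summed to 14.24 to 14.30 with AzaC and 14.25 to 14.55 with VPA, against 14.20 to 14.23 with PBS. None of the adipocyte, milk or basal genes passed, but no drug array overlapped a PBS array in these 3 sums. A sum follows its brightest genes. The mean log2 signal of the basal markers was 9.35 to 9.55 with AzaC and 9.47 to 9.87 with VPA, overlapping 9.47 to 9.65 with PBS. That of the adipocyte markers was 8.555 to 9.73 with AzaC, overlapping 8.54 to 8.98 with PBS. The adipocyte mean with VPA, and the milk mean with either drug, did not overlap PBS. In the arrays labelled virgin the adipocyte sum was 13.31 to 13.47 with AzaC and 13.09 to 13.22 with VPA, against 13.35 to 13.85 with PBS. Only 2 of 8 measured neutrophil markers and 2 of 8 lymphocyte markers had a mean above 7.04, and 1 of each was listed at 0 on at least 1 array. The part of these markers in the results was not tested, and in RNA of many cells a change in the number of cells of a type cannot be told apart from a change in RNA per cell.

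Among 7341 genes with a mean above 7.04 and no value at 0, those whose signal over the 15 arrays was most like that of Socs3 by Pearson r were Efna1 (0.946), Tfcp2 (0.945), Wdr45 (0.941), Nectin2 (0.934), Sesn3 (0.933) and Grb7 (0.932). Those most opposite were Galnt10 (-0.958), Lpin1 (-0.946) and Rdh11 (-0.940). Under the label pregnant, Galnt10 averaged 7.91 ± 0.42 (SD, n = 3) after AzaC, 7.92 ± 0.16 (SD, n = 3) after VPA and 9.76 ± 0.04 (SD, n = 2) after PBS. The genes most like Stat3 were Nedd4l (0.989) and Dusp8 (0.984), and those most like Osmr were Arid5b (0.988) and Zfp704 (0.982). Lif was nearest to Adcy6 (0.970) and Uckl1 (0.968), Cebpd to Rhou (0.933) and Armc10 (0.932), Cebpb to Tesk1 (0.972) and Gabarapl1 (0.963), and Bcl3 to Cldn4 (0.953) and Krt19 (0.946). How common such values are differs by member: r was over 0.9 for 363 genes with Stat3 and for 54 with Socs3. The genes most like the dim Il6 were Dolpp1 (0.904) and Fam3b (0.818).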

How the data were processed

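Expression was measured in 15 samples on 1-colour Affymetrix arrays with biotinylated cRNA, per the labels' protocols. The deposited values are taken as log2 signals per probe set, from 0 to 14.48, because powers of 2 of them span the usual range of such arrays. The base of the logarithm, background correction, summary and normalization are not given in the sources used here. Array medians were 7.22 to 7.47 and interquartile ranges 3.73 to 4.05, so the arrays are on a common scale and were used as deposited. Between 2.29 and 2.59% of probe sets were listed at 0 on an array. Precision is limited by the number of arrays.

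Of 22690 probe sets, 20380 had 1 gene symbol in the platform annotation, 691 several and 1606 none, and 13 control probe sets that carry a symbol were left out. Each of 12393 genes was represented by its probe set with the highest mean. One linear model of 6 group means, over all arrays, was fitted by limma (version 3.58.1, functions lmFit and eBayes) under R 4.3.3, with 9 residual and 2.31 prior degrees of freedom, two-sided tests, Benjamini-Hochberg adjustment over all genes in each of 11 comparisons and a threshold of 0.05. P-values measure the spread between arrays. Tested on simulated data for AzaC against PBS in arrays labelled pregnant, with 12393 genes, the fit recovered 41 of 100 genes changed by 1 and 88 of 100 changed by 2 on the log2 scale, and called 5 unchanged genes.

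The members and gene lists were chosen with earlier results of these data known. Named are all 8 members, pathway genes past the threshold against PBS (at most 4 a list, or, from lists with no such gene, those among the 2 with the smallest p in a comparison), Lifr, Il6st, Jak1, Jak2, Stat5a, Stat5b and Cish, and the genes most correlated with a member. Oncostatin M (Osm), on that list too, was not analysed here. Arrays were not paired by replicate number in the main fit. Deviations from group means correlated from -0.42 to 0.66 over 33 same-numbered pairs, over 0.1 in 14. Only same-numbered pairs were read, so this check cannot exclude pairing. Alternatives were other normalization, filters, probe set rules, fits, a Gapdh covariate, a replicate block and leaving out each array. Promoters are RefSeq, GRCm38.p6. No genome was used. Figures were drawn with matplotlib 3.10.9.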

Additional observations from a re-analysis of the deposited data

Results flagged for a closer look

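For 2 of the genes described here the difference between VPA and PBS itself differed between the stage labels by limma with Benjamini-Hochberg adjustment. They were 1 of 8 members and 1 of 75 pathway genes, against 39 of all 12393 genes (0.315%) in either direction. For Socs3 the VPA difference was larger by 3.11 ± 0.43 (SE) in the arrays labelled pregnant than in those labelled virgin. As Socs3 was chosen with its values known, this is a description. Among the pathway genes it was Ccnd1, where the interaction was -2.97 ± 0.46 (SE, limma adjusted p = 0.0325). The pathway lists too were chosen with earlier results of these data known, so this is likewise a description. For Ccnd1, VPA and PBS differed by -2.60 in the arrays labelled pregnant and by 0.37 in those labelled virgin. All 3 VPA arrays labelled pregnant were lower than their PBS arrays, while the 2 VPA arrays labelled virgin overlapped theirs. Both calls ended without any 1 of the pregnant PBS, pregnant VPA or virgin VPA arrays, and that of Ccnd1 also ended without pregnant AzaC replicate 3, virgin PBS replicate 1 or virgin AzaC replicate 2. Without virgin AzaC replicate 1, 8 pathway genes passed.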

How the results depend on the processing

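The members' differences changed sign in no called case. Settings that moved a count by over 1.5 times follow, members first and then pathway genes, for comparisons against PBS in arrays labelled pregnant. Fitting only the arrays compared gave 0 and 0 with AzaC and 3 members with VPA. Values under 5 set to 5 gave 3 members with VPA. For AzaC pathway genes numbered 18 with the dimmest 40% of genes left out, 16 with trend and robust eBayes and 15 with the Gapdh covariate. Without the 3 arrays of high Gapdh difference, chosen after seeing the data, there were 2 pathway genes with AzaC, and 1 member and 1 pathway gene with VPA. Between pregnant and virgin after AzaC, the member count was 0 after quantile normalization, with only the arrays compared and without those 3 arrays, and 3 pathway genes passed without dim genes. After VPA, it was 1 and 2 without those 3 arrays, and 17 pathway genes with the covariate. For the VPA effect by stage, counts were 3 and 4 without dim genes, 2 and 3 with trend and robust settings, and 2 and 2 with only the arrays compared. The cause was not tested.

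The main fit left out the replicate number, and whether that number pairs the arrays was not settled. As a block it gave 2 members and 1 pathway gene for VPA against PBS in arrays labelled pregnant. It gave 2 and 2 for pregnant against virgin after VPA, and 0 and 0 for the VPA effect by stage. It gave 466 genes in all for AzaC against PBS in arrays labelled pregnant, against 938 without the block, and 241 for VPA, against 741. The other counts stayed within 1.5 times under the block.

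Leaving out each array in turn gave 1 to 7 members and 0 to 17 pathway genes for AzaC against PBS in arrays labelled pregnant, and 1 to 7 and 0 to 16 for VPA. In arrays labelled virgin it gave 0 to 1 members and 0 pathway genes with either drug. Pregnant against virgin gave 0 to 2 and 0 to 1 after AzaC, 0 to 6 and 0 to 16 after VPA, and 0 to 1 and 0 after PBS. The VPA effect by stage gave 0 to 3 and 0 to 8. All other ranges were 0. Counts over all genes in these fits are not given here. Dim probe sets, Il6 among them, limit what can be read, since values under about 5 have no reliable order.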
